A study of Homo sapiens with 24 samples.

Results

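The mRNAs of 10 apolipoproteins were followed in HepG2 cells: APOA1, APOA2, APOA4, APOB, APOC1, APOC2, APOC3, APOE, APOH and APOM. They were taken by gene symbol out of 58676 genes counted in every library. The rule uses no measured value, but the 10 were chosen with earlier results of these data known. HepG2 is an established human liver cancer line of hepatocyte type. Cells received a negative control siRNA (siControl) or an siRNA that targets IGF2BP1, IGF2BP2 or IGF2BP3 (siIGF2BP1, siIGF2BP2, siIGF2BP3), and actinomycin D, which stops transcription, was added 0, 3 or 6 h before collection. The 4 siRNAs at 3 times gave 12 groups with 2 libraries each, 24 libraries in all. By the labels the siControl cells differed from the knockdown cells only in the siRNA, and the labels name no batch. The knockdowns were transient, and the labels tie no library to a separate transfection, so that the tests measure the spread between libraries, which may be technical. By the study's methods each transfected plate was divided over the 3 times, so libraries of 1 siRNA at different times may share a transfection, and p-values over several times treat them as independent. The study used this time course to ask how loss of each IGF2BP protein changes the lifetime of mRNAs. The METTL1 knockdown of the same study was not analysed here.

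Apolipoproteins are the protein part of the lipoprotein particles that carry cholesterol and triglyceride in blood, and the liver secretes most of them. APOB is the scaffold of very low and low density lipoprotein, APOA1 and APOA2 are the main proteins of high density lipoprotein, and the small APOC proteins and APOE move between particles and set how lipases and receptors act on them. The IGF2BP proteins bind mRNA through KH domains and are known for changing the stability and translation of the mRNAs they bind. An mRNA that is not replaced after actinomycin D is lost at its own rate, from which its half-life is computed.

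Gene reads per library ranged from 31843248 to 74252042, and reads of the ERCC spike-in RNA from 50889 to 119088. At 0 h the targeted mRNA was at 20.9% (IGF2BP1), 26.1% (IGF2BP2) and 35.4% (IGF2BP3) of its siControl level. Of 10 hepatocyte markers, 8 were at 1 CPM (reads per 1000000 gene reads) or more in every library, with a summed level of 35110 to 53690 CPM, while CYP3A4 and CYP2E1, enzymes of mature hepatocytes, were at or near 0. The 3 blood cell markers summed to at most 0.127 CPM, the 3 endothelial markers to at most 2.7 CPM and the 4 stellate cell and fibroblast markers to at most 0.4 CPM. Of the bile duct markers, KRT7 was near 0 and KRT19, which HepG2 cells express, was at 85.4 to 161 CPM. The bile duct sum at 0 h was 136.7 and 147.7 CPM in siControl, 125 and 128.8 CPM in siIGF2BP1, 148.2 and 158.3 CPM in siIGF2BP2, and 100.5 and 104.8 CPM in siIGF2BP3. The hepatocyte sum at 0 h was 35120 and 35730 CPM in siControl and between 35110 and 37210 CPM in the knockdowns, and the part of cell composition in the results below was not tested. In bulk libraries, fewer cells that make an mRNA and less of it per cell cannot be told apart.

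The genes lie in 2 clusters and 4 single places in GRCh38, by GENCODE annotation. APOA4 (chr11:116820700-116823304, minus strand), APOC3 (chr11:116829706-116833072, plus strand) and APOA1 (chr11:116835751-116837622, minus strand) are neighbours. APOE (chr19:44905791-44909393), APOC1 (chr19:44914247-44919349) and APOC2 (chr19:44946035-44949565) follow each other on the plus strand. APOB (chr2:21001429-21044073, minus strand), APOA2 (chr1:161222292-161223631, minus strand), APOH (chr17:66212033-66256525, minus strand) and APOM (chr6:31652416-31658210, plus strand) stand alone. Some exons are shared with other annotated genes, and how the counting treated such reads is not given in the sources used here. Of the exon bases of APOC2, 53.5% lie also in the read-through gene APOC4-APOC2 on the same strand, and of those of APOC1, 40.7% lie in an unnamed same-strand gene. On the opposite strand, 43.2% of the APOA4 exon bases overlap a long noncoding RNA, 11.2% of the APOA1 bases overlap APOA1-AS and 11% of the APOM bases overlap BAG6. The values of APOC1 and APOC2 are the most uncertain for this reason, and APOC1 also has a pseudogene copy.

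The 10 mRNAs together held 3.47% to 5.05% of all gene reads of a library. Most of that was APOB, which alone held 2.98% to 4.24%, or 1224060 to 2509202 reads. Every gene passed the filter on low counts, but the depth behind them differed widely. APOC2 had 25 to 146 reads per library and APOA4 194 to 533, so that counting error weighs on these 2, while each of the other 8 had at least 739 reads.

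Per kilobase of the canonical transcript, the order in siControl at 0 h (mean ± SD, n = 2) was led by APOA1 at 2683 ± 4.37 CPM per kilobase and APOB at 2419 ± 53.3 CPM per kilobase. APOA2 followed at 1815 ± 52.1, APOH, a phospholipid-binding plasma protein, at 845.6 ± 5.37, and APOE at 670.1 ± 6.32 CPM per kilobase. APOC1 was at 194.5 ± 4.09 and APOC3 at 127 ± 7.8 CPM per kilobase. APOM, a sphingosine 1-phosphate carrier of high density lipoprotein, was at 32.02 ± 1.34, APOA4, mainly an intestinal protein, at 4.847 ± 0.047, and APOC2, the cofactor of lipoprotein lipase, at 2.102 ± 0.577 CPM per kilobase. Each gene stood above the next in 8 of the 8 libraries collected at 0 h. With the length of all annotated exons in place of the canonical transcript, APOB (2304 ± 50.7 CPM per kilobase) and APOA1 (2201 ± 3.58) changed places, and APOB was then above APOA1 in 2 of the 8 libraries, so the first and second place depend on the length used. On that length APOC1 and APOC3 were at 84.86 ± 1.78 and 79.86 ± 4.9 CPM per kilobase, and APOC1 was above APOC3 in 8 of the 8 libraries.

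Which of these mRNAs differ before transcription is stopped was tested at 0 h. In siIGF2BP1, 4 of the 10 were higher than in siControl (APOA1, APOC3, APOE and APOH) and 1, APOM, was lower. In siIGF2BP2, 4 were lower (APOA1, APOB, APOC3 and APOM), and in siIGF2BP3, 3 were lower (APOB, APOC3 and APOM), with none higher in these 2 knockdowns. Over all 13136 genes tested, the edgeR test called 9.43% higher and 6.5% lower in siIGF2BP1, 6.65% higher and 5.47% lower in siIGF2BP2, and 4.93% higher and 4.47% lower in siIGF2BP3. The median log2 difference of the 10 was 0.12, -0.08 and -0.08 in the same order, beside 0.01, 0.02 and 0 over all genes. The 3 comparisons share the siControl libraries. In siIGF2BP1 the count of 5 went to 2 without the second siControl library (APOA1 and APOE) and to 1 without the second siIGF2BP1 library (APOE). No single library moved the counts in siIGF2BP2 and siIGF2BP3 by more than 1 gene.

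APOM was lower in each knockdown. Its level at 0 h was 23.6 and 25.1 CPM in the siControl libraries, 21.2 and 19.9 CPM in siIGF2BP1, 16.1 and 16.8 CPM in siIGF2BP2, and 18.3 and 19.8 CPM in siIGF2BP3. No knockdown library reached the lower siControl library. The means were 84.3%, 67.5% and 78.1% of siControl in siIGF2BP1, siIGF2BP2 and siIGF2BP3. The log2 differences under TMM scaling were -0.22 (SE 0.07, edgeR adjusted p 0.0215), -0.56 (SE 0.07, adjusted p 1.54e-07) and -0.36 (SE 0.071, adjusted p 0.000529). Scaled by the ERCC reads instead, APOM was at -0.48 in siIGF2BP2 (edgeR adjusted p 0.000584), while the values of -0.25 and -0.27 in siIGF2BP1 and siIGF2BP3 did not pass (adjusted p 0.194 and 0.165). Leaving out any single library of the 0 h comparison kept the calls of APOM in siIGF2BP2 and siIGF2BP3. The call in siIGF2BP1 was lost without the second siControl library (-0.18, edgeR adjusted p 0.199), without the first siIGF2BP1 library (-0.27, adjusted p 0.0536) and without the second (-0.19, adjusted p 0.168).

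APOM stayed below siControl through the time course. At 6 h it was at 36.1 and 34.4 CPM in siControl, 31.6 and 31.4 CPM in siIGF2BP1, 24.6 and 25.7 CPM in siIGF2BP2, and 28.1 and 30.7 CPM in siIGF2BP3. The CPM of both libraries lay below both siControl libraries at 3 of 3 times in every knockdown. Averaged over the 3 times with TMM scaling, the log2 differences of APOM were -0.23, -0.56 and -0.31 in siIGF2BP1, siIGF2BP2 and siIGF2BP3 (edgeR adjusted p 1.06e-05, 2.51e-14 and 7.48e-08, which are too small if libraries of different times share a transfection). A ratio that no scaling can move was also lower: APOM had 9.3 to 10.4 reads per 1000 reads of APOA1 in the 6 siControl libraries and 6.97 to 8.49 in the 18 knockdown libraries, with no overlap. Such a ratio shows unequal change of the pair and not which of them changed.

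IGF2BP proteins are known to recognise short RNA elements with GGC and CA at a distance from each other. GGCA followed by CA was therefore looked for in the mRNAs, on the sense strand, with 15 to 25 bases between them and overlapping matches counted. The study cites GGCA and CA as a preference of IGF2BP3, at spacings that also include shorter ones. Pairs with fewer than 15 bases between them, and the CGGC form that it cites as well, were not counted. APOM held the pair at 2 places, both within its coding exons, and they are given here with GGCA and CA in capitals, from GRCh38.
APOM chr6:31656513-31656540, plus strand: GGCAgctcccaccaaggaggagttggCA
APOM chr6:31656537-31656559, plus strand: GGCAacttttgaccctgtggaCA
The pair was in 100% of the 10 mRNAs, from 1 copy in APOA2, APOC1, APOC2 and APOH to 36 in APOB, and in 98.5% of the mRNAs of 11370 tested genes. Its density was 2.63 per kilobase in APOM, a median of 2.33 over the 10 mRNAs and 2.58 over all genes. A match is a description of the letters and not a site of binding.

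APOC3, an inhibitor of lipoprotein lipase and of particle uptake, moved in opposite directions between knockdowns. At 0 h it was at 70.9 and 65 CPM in siControl, 72.6 and 78.7 CPM in siIGF2BP1, 50.4 and 54.4 CPM in siIGF2BP2, and 60.3 and 58.7 CPM in siIGF2BP3. All siIGF2BP1 libraries were above and all siIGF2BP2 and siIGF2BP3 libraries below the siControl libraries. The log2 differences were 0.17 (SE 0.06, edgeR adjusted p 0.0444), -0.37 (SE 0.06, adjusted p 2.34e-05) and -0.18 (SE 0.061, adjusted p 0.0473). The call in siIGF2BP1 was lost without the second siControl library (0.1, edgeR adjusted p 0.452) or the second siIGF2BP1 library (0.11, adjusted p 0.423). The call in siIGF2BP3 was lost without the first siControl library (-0.12, edgeR adjusted p 0.501) or either siIGF2BP3 library (-0.2 and -0.17, adjusted p 0.129 and 0.256). With ERCC scaling only the siIGF2BP2 value stayed past it, at -0.29 (edgeR adjusted p 0.0264). Per 1000 reads of APOA1, its neighbour on chromosome 11, APOC3 had 25.1 to 29.4 reads in siControl, 25.3 to 29 in siIGF2BP1, 22 to 24 in siIGF2BP2 and 19.2 to 24.7 in siIGF2BP3.

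**Figure D1:**
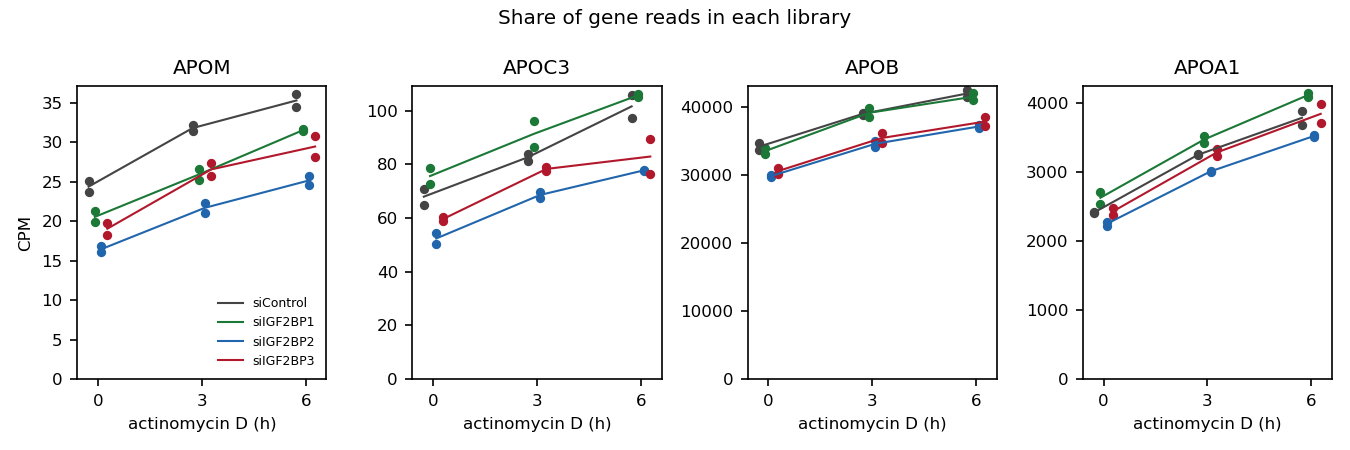
CPM (reads per 1000000 gene reads, linear axis from 0) of APOM, APOC3, APOB and APOA1 against hours of actinomycin D, with 1 point per library, lines through the means of 2 libraries, and points shifted sideways to separate the siRNAs. APOM in siControl runs from 23.6 CPM at 0 h to 36.1 CPM at 6 h, above every knockdown library of the same time. CPM is a share of the RNA left, so a rise is relative to other mRNAs.

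APOB was lower in siIGF2BP2 and siIGF2BP3. It was at 34695 and 33631 CPM in siControl, 33925 and 33123 CPM in siIGF2BP1, 29758 and 29968 CPM in siIGF2BP2, and 30078 and 31035 CPM in siIGF2BP3. The siIGF2BP1 libraries overlapped siControl, and the others lay below it. The log2 differences were -0.01 in siIGF2BP1 (SE 0.023, edgeR adjusted p 0.873), -0.19 in siIGF2BP2 (SE 0.023, adjusted p 1.02e-07) and -0.16 in siIGF2BP3 (SE 0.023, adjusted p 5.88e-06). With ERCC scaling they were -0.04, -0.11 and -0.08 and none passed (adjusted p 0.894, 0.43 and 0.661).

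APOA1 was at 2410 and 2415 CPM in siControl, 2539 and 2712 CPM in siIGF2BP1, 2221 and 2270 CPM in siIGF2BP2, and 2476 and 2376 CPM in siIGF2BP3. It was 0.14 higher on the log2 scale in siIGF2BP1 (SE 0.029, edgeR adjusted p 0.000513), and the difference was -0.1 in siIGF2BP2 (SE 0.029, adjusted p 0.0249). The call in siIGF2BP1 was lost without its second library (0.08, edgeR adjusted p 0.0981), and that in siIGF2BP2 without its first library (-0.08, adjusted p 0.265) or without the first or second siControl library (-0.09 and -0.1, adjusted p 0.139 and 0.104). The higher siIGF2BP3 library lay above siControl and the lower below it (0.01, SE 0.029, edgeR adjusted p 0.881). Its partner APOA2 passed in no knockdown at 0 h, with log2 differences of -0.05, -0.02 and 0.01 (edgeR adjusted p 0.396, 0.732 and 0.942). Averaged over the 3 times with TMM scaling, APOA2 was lower in each knockdown, at -0.08, -0.06 and -0.06 (edgeR adjusted p 0.000903, 0.0122 and 0.00623). These p-values are too small if libraries of different times share a transfection.

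APOE, a ligand for the uptake of lipoprotein particles by the liver, was at 786.6 and 776.2 CPM in siControl and 845.2 and 877.5 CPM in siIGF2BP1, a log2 difference of 0.16 (SE 0.035, edgeR adjusted p 0.000847). APOH was at 997.2 and 988.3 CPM in siControl and 1055 and 1068 CPM in siIGF2BP1, a log2 difference of 0.12 (SE 0.033, edgeR adjusted p 0.0132). Both were higher in 2 of 2 siIGF2BP1 libraries. The call of APOE held without any single library, and that of APOH was lost without the first or second siControl library (edgeR adjusted p 0.0524 and 0.113) or the second siIGF2BP1 library (adjusted p 0.135). In siIGF2BP2 and siIGF2BP3 the log2 differences of APOE were -0.01 and -0.07 (edgeR adjusted p 0.925 and 0.238) and those of APOH -0.06 and 0.09 (adjusted p 0.315 and 0.07).

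APOC1, APOC2 and APOA4 passed in no knockdown at 0 h. APOC1, an inhibitor of cholesteryl ester transfer, was at 101.4 and 98.5 CPM in siControl, 104.4 and 111.4 CPM in siIGF2BP1, 94.4 and 95.5 CPM in siIGF2BP2, and 91.9 and 94.5 CPM in siIGF2BP3. Its log2 differences were 0.13, -0.07 and -0.1 (edgeR adjusted p 0.0905, 0.488 and 0.294). APOA4 was at 7.08 and 7.18 CPM in siControl and at 5.48 to 6.77 CPM in the 6 knockdown libraries, all below siControl, with log2 differences of -0.21, -0.36 and -0.16 (SE 0.131, 0.131 and 0.132, edgeR adjusted p 0.33, 0.0696 and 0.546). APOC2 was at 1.66 and 1.12 CPM in siControl (95 and 83 reads) and at 1.97 and 1.99 CPM in siIGF2BP1 (146 and 74 reads). Both siIGF2BP1 libraries lay above siControl, and the log2 difference of 0.54 had an SE of 0.295 (edgeR adjusted p 0.245). The siIGF2BP2 and siIGF2BP3 libraries overlapped siControl.

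**Figure D2:**
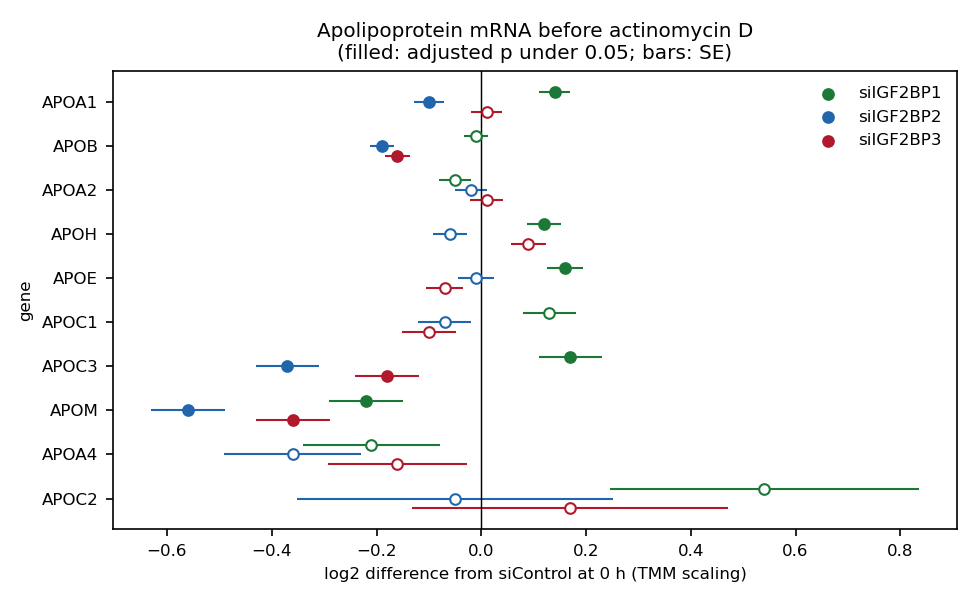
Log2 difference of each apolipoprotein mRNA from siControl at 0 h of actinomycin D (x axis, TMM scaling) by gene (y axis) in siIGF2BP1, siIGF2BP2 and siIGF2BP3. Bars are standard errors, and filled points have an edgeR adjusted p under 0.05. The siIGF2BP2 value of APOM is the lowest at -0.56, and only APOM and APOC3 in siIGF2BP2 stay past the threshold with ERCC scaling.

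All calls at 0 h but those of APOM and APOC3 in siIGF2BP2 were lost with ERCC scaling, where the SE of these genes rose to between 0.0748 and 0.335, and no called value changed its sign. The 2 siControl libraries at 0 h differed in their ERCC share, with 1.31 and 1.5 ERCC reads per 1000 gene reads. Over all genes, ERCC scaling turned 1239 higher and 854 lower calls in siIGF2BP1 into 253 and 396, those of 874 and 719 in siIGF2BP2 into 563 and 169, and those of 647 and 587 in siIGF2BP3 into 388 and 83. The median of all genes was then -0.02, 0.1 and 0.09.

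The knockdowns were also compared with each other at 0 h. Against siIGF2BP2, siIGF2BP1 cells had more of 7 of the 10 mRNAs and less of none, where 9.65% of all genes were higher. APOC3 was 0.54 higher on the log2 scale (SE 0.061, edgeR adjusted p 1.03e-08) and APOM 0.34 higher (SE 0.072, adjusted p 0.000572), while the other 5 (APOA1, APOB, APOC1, APOE and APOH) were 0.17 to 0.24 higher. Against siIGF2BP3, 5 were higher in siIGF2BP1 (APOA1, APOB, APOC1, APOC3 and APOE), where 8.31% of all genes were higher. Their log2 differences lay between 0.13 for APOA1 and 0.36 for APOC3, and APOM did not pass (0.13, SE 0.073, edgeR adjusted p 0.264). Between siIGF2BP2 and siIGF2BP3, APOA1 and APOH were lower in siIGF2BP2 by log2 differences of -0.11 and -0.15 (SE 0.029 and 0.033, edgeR adjusted p 0.0124 and 0.00149), where 4.28% of all genes were lower. The difference of APOM between these 2 knockdowns, -0.21, did not pass (SE 0.073, edgeR adjusted p 0.0736). With ERCC scaling the call of APOC3 between siIGF2BP1 and siIGF2BP2 stayed (0.43, edgeR adjusted p 8.06e-05), and the other 13 calls between knockdowns were lost. That scaling moved the median of all genes to -0.12 and -0.11 in the comparisons of siIGF2BP1 with siIGF2BP2 and siIGF2BP3, and turned 1267 higher and 1188 lower genes into 238 and 1347, and 1091 and 788 into 98 and 777. Without the second siIGF2BP1 library 3 genes stayed higher than in siIGF2BP3 (APOB, APOC3 and APOE). Without the first siIGF2BP2 library neither call against siIGF2BP3 stayed, and without the first siIGF2BP3 library APOH alone stayed.

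Loss after actinomycin D was measured as a slope, the log2 change over 6 h relative to the ERCC reads. In siControl the slopes of 7 of the 10 mRNAs did not differ from 0 and 3 fell (APOB, APOA4 and APOC2), where 80.3% of all genes fell and 0.251% rose. The median slope of the 10 was 0.01 beside -0.88 over all genes. In siIGF2BP1, APOC2 fell and APOA1, APOA2 and APOM rose, where 69.1% of all genes fell and 2.69% rose. In siIGF2BP2, APOC2 fell and APOA1, APOA2 and APOC1 rose, where 71.3% fell and 2.44% rose. In siIGF2BP3, APOC2 fell and APOA1, APOA2, APOC1, APOE and APOM rose, where 67.2% fell and 2.91% rose. The median slopes of the 10 in the knockdowns were 0.14, 0.18 and 0.17, beside -0.69, -0.71 and -0.65 over all genes. ERCC RNA was added per amount of total RNA, so a rise means more of an mRNA per total RNA at 6 h than at 0 h, and with TMM scaling, where the median of all genes in siControl moved to -0.02 and 4773 genes rose and 5085 fell, the values of APOB and APOA4 were above 0 in every siRNA. The counts rest on single libraries. In siControl, 1 call (APOA4) stayed without the first 0 h library. In siIGF2BP1, 1 stayed without the first 0 h library, and 2 without the second 0 h library or without the first 6 h library. In siIGF2BP2, 1 stayed without the first 0 h library or without the second 6 h library. In siIGF2BP3, the count went to 2 without the first 0 h library, where APOA1 rose and APOA4 fell, and to 3 without the second 6 h library.

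APOA1 at 6 h was left at 113.8% and 100.6% of its 0 h mean in the siControl libraries, 120.7% and 121.4% in siIGF2BP1, 111.1% and 127% in siIGF2BP2, and 132.4% and 115.9% in siIGF2BP3. Its slopes were 0.1 in siControl (SE 0.083, edgeR adjusted p 0.273) and 0.28, 0.25 and 0.31 in the knockdowns (adjusted p 0.00506, 0.00873 and 0.00199). The differences of these slopes from siControl did not pass (edgeR adjusted p 0.51, 0.647 and 0.345). Without the second siControl library at 6 h the siControl slope was 0.21. It was 0.23 in siIGF2BP1 without the first 0 h library, and 0.16 in siIGF2BP2 without the second 6 h library. The siControl libraries at 0 h themselves lay at 106.6% and 93.4% of their mean on this scale. The first of them was above the second for each of the 10 mRNAs, at 103.7% to 111% for 9 of them and at 125.8% for APOC2. APOA2 was left at 111.2% and 101.9% in siControl and at 107.5% to 125.8% in the 6 knockdown libraries. APOE and APOC1 reached 97.2% to 127.5% and 99.8% to 126.6% over the 8 libraries at 6 h. The siControl slope of APOE was 0.09, and 0.23 without the second siControl library at 6 h.

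APOB, with the longest mRNA, was left at 85.8% and 81.8% at 6 h in siControl, 95% and 96.3% in siIGF2BP1, 88.5% and 100.3% in siIGF2BP2, and 98.1% and 95.8% in siIGF2BP3. All knockdown libraries stood above both siControl libraries. The slope in siControl was -0.25 (SE 0.081, edgeR adjusted p 0.00638), and those in the knockdowns, -0.06, -0.08 and -0.04, did not differ from 0 (adjusted p 0.487, 0.353 and 0.635). The call in siControl was lost without the first 0 h library (-0.17, edgeR adjusted p 0.114) or the second 6 h library (-0.21, adjusted p 0.0573). APOA1 gained on APOB in every siRNA, from 69.5 and 71.8 reads per 1000 APOB reads at 0 h to 93.5 and 86.8 at 6 h in siControl, and from 74.6 to 82.3 at 0 h up to 94.4 to 107 at 6 h over the 6 knockdown libraries. This ratio does not depend on the spike-in.

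**Figure D3:**
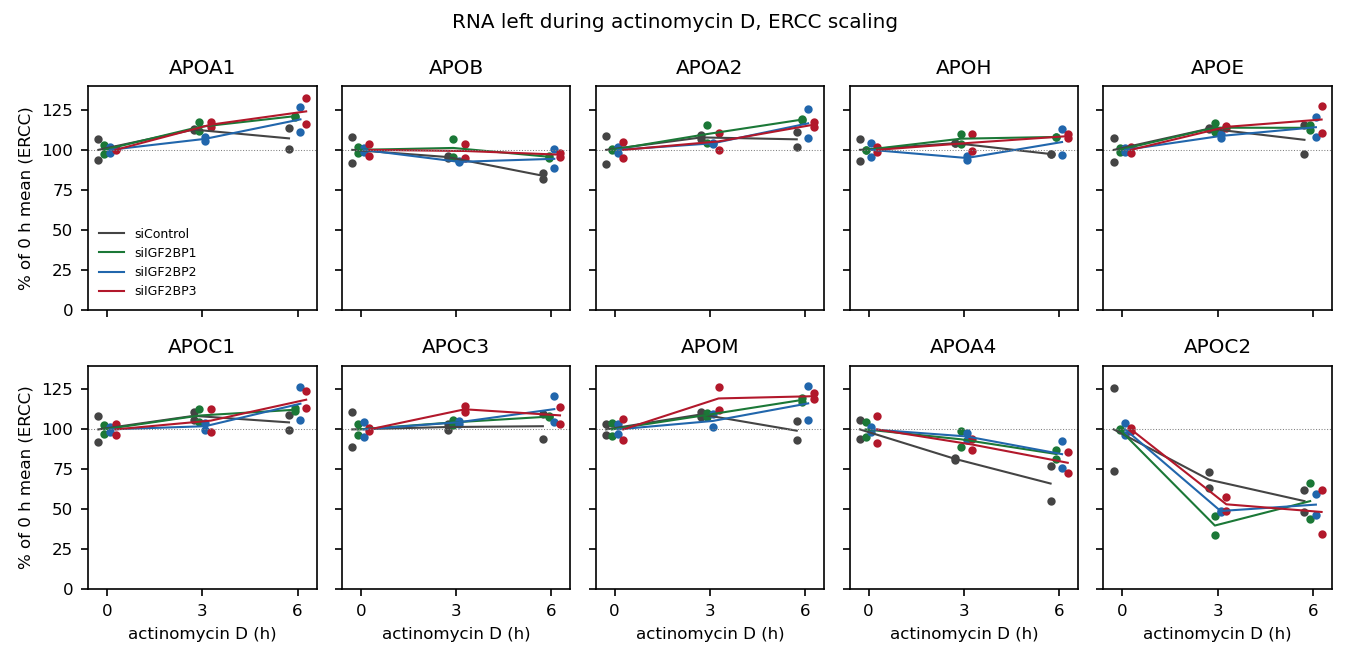
RNA left, in % of the 0 h mean of the same siRNA and scaled by ERCC reads (linear axis from 0), against hours of actinomycin D for each apolipoprotein mRNA, with 1 point per library and lines through the means of 2. APOC2 falls to between 34% and 73.3% at 3 h, and most others stay near or above the dotted line at 100%. With TMM scaling APOB and APOA4 rise.

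APOA4 was left at 77.2% and 55% at 6 h in siControl and at 72.5% to 92.8% in the 6 knockdown libraries, so the groups overlapped. Its slope in siControl was -0.59 (SE 0.149, edgeR adjusted p 0.000966), and the slopes of -0.24, -0.24 and -0.33 in the knockdowns did not pass (adjusted p 0.163, 0.156 and 0.0557). APOC2 was the only one of the 10 that fell in every siRNA by edgeR. It was left at 73.3% and 63.6% after 3 h in siControl, at 34% and 45.6% in siIGF2BP1, at 49.2% and 48.5% in siIGF2BP2 and at 57.5% and 48.6% in siIGF2BP3. Its slopes were -0.85, -0.89, -0.94 and -1.09 in siControl, siIGF2BP1, siIGF2BP2 and siIGF2BP3 (SE 0.379, 0.365, 0.383 and 0.398, edgeR adjusted p 0.0453, 0.0344, 0.0322 and 0.0193). In siControl the call was lost without the first 0 h library, where the slope was -0.45 (edgeR adjusted p 0.374), without either 3 h library (-0.85 and -0.84, adjusted p 0.0501 and 0.0513) or without the second 6 h library (-0.73, adjusted p 0.157). In each knockdown it was lost without the first or second 0 h library or the first 6 h library. DESeq2 did not call it in siControl, siIGF2BP1 or siIGF2BP2 (adjusted p 0.0729, 0.076 and 0.0628). With TMM scaling the siControl slope was 0.03. Since 53.5% of its exon bases belong also to a read-through gene, this value may mix the transcripts of both.

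Averaged over the 4 siRNAs, which uses all 24 libraries, 6 mRNAs rose and 3 fell, where 4.75% of all genes rose and 81.7% fell. The average slopes were 0.23 for APOA1, 0.19 for APOA2, 0.18 for APOE, 0.18 for APOM, 0.17 for APOC1 and 0.11 for APOC3, and these 6 rose. APOH, at 0.07, did not pass (SE 0.039, edgeR adjusted p 0.121). The average slope of APOB was -0.11 (SE 0.04, edgeR adjusted p 0.0133), that of APOA4 -0.35 (SE 0.076, adjusted p 0.000172) and that of APOC2 -0.94 (SE 0.191, adjusted p 9.34e-05). Over all genes the median was -0.73, and 8 of the 10 had percentiles among all genes of 83.4 (APOB) to 97.8 (APOA1). With TMM scaling APOA4 and APOB turned to 0.36 and 0.6, since the median of all genes then moved to -0.02.

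**Figure D4:**
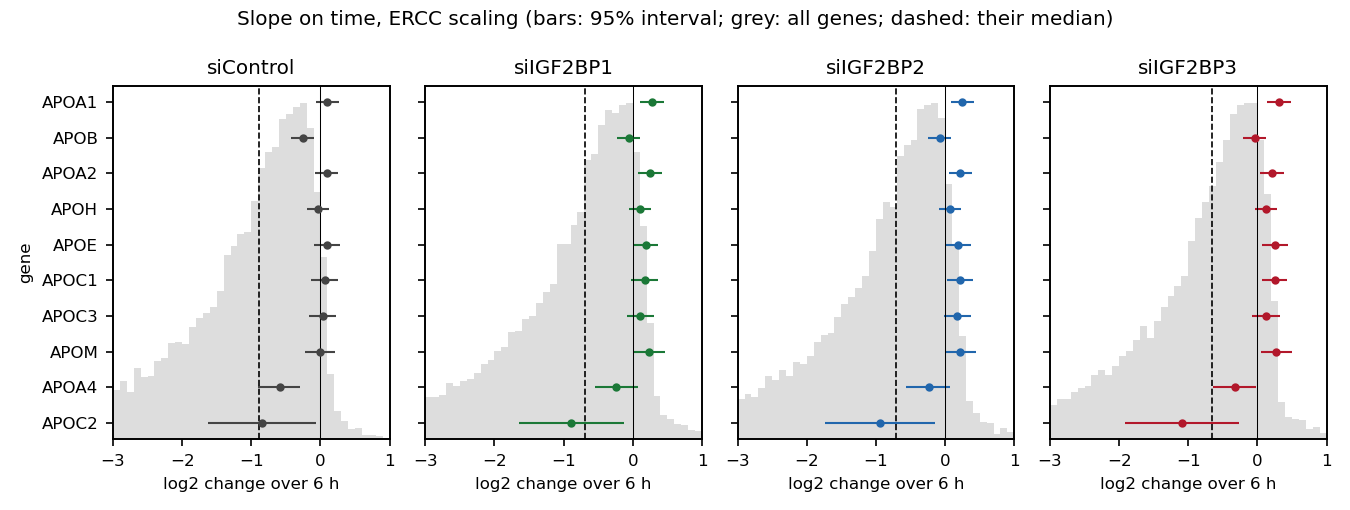
Slope on time (x axis, log2 change over 6 h, ERCC scaling) of each apolipoprotein mRNA (y axis) in each siRNA, with 95% intervals, over a grey histogram of all 13136 genes scaled to the panel and a dashed line at their median. Genes beyond the axis are not drawn. In siControl the slopes run from -0.85 for APOC2 to 0.1 for APOA1 with the median of all genes at -0.88, and with TMM scaling those of APOB and APOA4 are above 0.

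Half-lives were computed by first-order decay from the means at 0, 3 and 6 h. No half-life exists where the rate of loss was not above 0, and this was so for 7, 7, 6 and 7 of the 10 mRNAs in siControl, siIGF2BP1, siIGF2BP2 and siIGF2BP3, beside 9.36%, 15%, 9.59% and 16% of all genes. At the median rate of all genes it was 7.11, 8.76, 7.46 and 9.07 h. APOA4 had 10.1, 28.1, 32.1 and 19.1 h, and APOC2 6.14, 3.41, 4.02 and 4.17 h. The first and second libraries alone gave APOA4 9.98 and 10 h in siControl and 27.6 and 28.6 h in siIGF2BP1. They gave it 23.6 and 47.4 h in siIGF2BP2, and 50.4 and 12 h in siIGF2BP3. For APOC2 they gave 4.65 and 11.2 h in siControl and 2.78 to 4.48 h in the knockdowns. From the fitted slopes APOC2 had 7.09, 6.77, 6.39 and 5.53 h. The slopes of APOA4 in siIGF2BP1 and siIGF2BP2 allowed no upper bound. APOB had 30.9, 406, 38.8 and 185 h. The spread of the APOB values shows how little a slow loss can be timed within 6 h, since the first and the second library of each time gave 17.7 and 173 h in siControl. From the fitted slope APOB in siControl had 23.5 h with a 95% interval of 14.2 to 68.7 h. For APOA1, APOA2, APOE, APOC1 and APOC3 in siControl the slope allowed no upper bound, and its lower bound of the half-life was 82.4, 74.7, 60.5, 47.6 and 36.7 h. For APOH and APOM the lower bound was 29.7 and 25.9 h.

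Whether a knockdown changed the loss of these mRNAs was tested as a difference in slope from siControl. None of the 10 passed in siIGF2BP1, siIGF2BP2 or siIGF2BP3 by edgeR, where 0.0152%, 0.0% and 0.0228% of all genes passed, and none of the 10 had an unadjusted p under 0.05. DESeq2 called none of them either, over the 26 tests of members that had a DESeq2 adjusted p, and 8, 6 and 25 of all genes. At an unadjusted p under 0.05 edgeR counted 1436, 896 and 2113 of all genes. The median difference of the 10 was 0.15, 0.15 and 0.17, beside 0.19, 0.17 and 0.22 over all genes. The largest difference was 0.36 for APOA4 in siIGF2BP1 (SE 0.213, edgeR adjusted p 0.483), and the lowest was -0.24 for APOC2 in siIGF2BP3 (SE 0.551, adjusted p 0.815). For APOM the differences were 0.26, 0.23 and 0.29 (SE 0.149, 0.149 and 0.15, edgeR adjusted p 0.479, 0.643 and 0.332), and for APOB 0.19, 0.17 and 0.21 (SE 0.114, 0.113 and 0.114, adjusted p 0.483, 0.643 and 0.338). Differences of these sizes did not pass with 2 libraries per group.

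Departure from a straight line was tested as the log2 level at 6 h plus that at 0 h minus 2 times that at 3 h, averaged over the siRNAs. Of the 10, APOC2 passed, at 0.98 (SE 0.315, edgeR adjusted p 0.00832), where 29.9% of all genes passed. From 3 to 6 h the means went from 68.5% to 55.1% in siControl, from 39.8% to 55.1% in siIGF2BP1, from 48.9% to 52.9% in siIGF2BP2 and from 53.1% to 48.3% in siIGF2BP3. APOE was next at -0.16 and did not pass (SE 0.069, edgeR adjusted p 0.0624). It passed as well without the first siControl library at 0 h or 6 h (-0.19 in both, adjusted p 0.0121 and 0.022), without the second siIGF2BP2 library at 6 h (-0.18, adjusted p 0.0125) or without the first siIGF2BP3 library at 6 h (-0.19, adjusted p 0.0296), which made the count 2. Over all genes 3348 values passed above 0 and 575 below, and with TMM scaling 2839 and 4098.

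The structure of the mRNAs was read from the canonical transcripts of GENCODE and compared with 11370 tested genes. The median length of the 10 mRNAs was 830 nt beside 3347.5 nt, and that of the 3' untranslated region 132 nt beside 1320.5 nt. Their 3' untranslated regions ran from 57 nt in APOA1 to 316 nt in APOC2, at percentiles 1.6 to 15.6 of these genes. APOB, with an mRNA of 14121 nt at percentile 98.9, had a 3' untranslated region of 301 nt. Over all genes the median siControl slope was -0.47 for 3' untranslated regions of up to 200 nt (1055 genes, 8 of the apolipoproteins among them), -0.56 for 201 to 400 nt (1199 genes, with APOB and APOC2) and -1.14 above 3200 nt (2234 genes). The slopes of APOC2 and APOA4 lay below the median of their length class and those of the other 8 above it. A relation across genes describes these libraries, and genes are not independent replicates.

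Sequence letters known from short-lived mRNAs were looked for in the 3' untranslated regions, on the sense strand. ATTTA, the core of AU-rich elements, was in 3 of the 10 (30.0%) and in 72.6% of all 11370 genes, and in 15.9% of genes with a 3' untranslated region of up to 200 nt and 36.7% of those with 201 to 400 nt. TGTANATA, the Pumilio motif, was in none of the 10 (0.0%) and in 29.8% of all genes. The regions searched had a median of 132 nt in the 10 and 1320.5 nt in all genes. No share by length class was computed for this motif. The 4 copies of ATTTA are shown because APOB and APOC2, which hold 1 each, were 2 of the 3 mRNAs with a negative average slope, while APOH holds 2 and did not pass. They are in capitals, from GRCh38.
APOB chr2:21001694-21001722, minus strand: aaagaaatcttcATTTAttcttcttttcc
APOC2 chr19:44949460-44949488, plus strand: agtccagccaacATTTAatgagcacctac
APOH chr17:66212050-66212078, minus strand: aacctaattgaaATTTAaaaataaagcta
APOH chr17:66212033-66212057, minus strand: taaagctactgaATTTAttgccgca
The windows of APOH overlap, and APOA4, the third mRNA that fell on average, holds none. No match says only that these letters are not in the window searched.

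**Figure D5:**
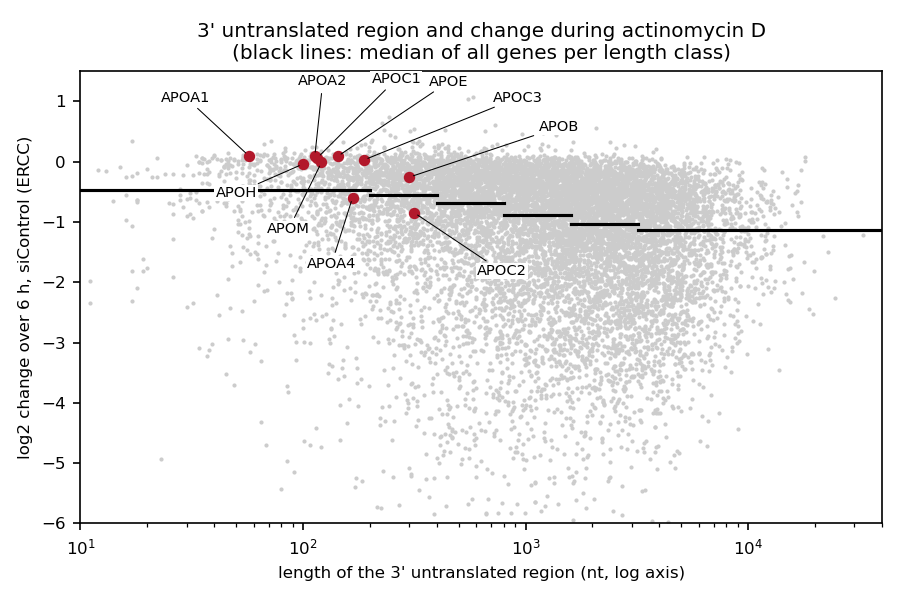
Log2 change over 6 h in siControl (y axis, ERCC scaling) against the length of the 3' untranslated region in nt (x axis, log scale), with tested genes in grey, the 10 apolipoprotein mRNAs in red and the median of each length class as a black line. Genes beyond the axes are not drawn. The 10 lie between 57 and 316 nt, 8 of them above the median of their class and APOC2 and APOA4 below it.

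Of the other 16 apolipoprotein genes 12 were tested. In siControl, 8 of the 12 fell and none rose, with a median slope of -0.58, where 80.3% of all genes fell with a median of -0.88. The fastest were APOL2 at -2.43 (SE 0.122, edgeR adjusted p 9.28e-14) and APOL6 at -1.97 (SE 0.178, adjusted p 1.29e-09), of the APOL family, while CLU, the secreted chaperone clusterin, rose in each knockdown by 0.23 to 0.27. At 0 h, 4 were higher and 1 lower in siIGF2BP1, with APOL6 0.44 and APOL1 0.33 higher and CLU at -0.17. In siIGF2BP2 none was higher and 2 were lower (APOOL, a mitochondrial protein, at -0.5 and APOL2 at -0.24), and in siIGF2BP3 none passed.

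The genes of lipoprotein assembly, transfer and lipolysis were called both ways at 0 h, where 9.43% of all genes were higher and 6.5% lower in siIGF2BP1, 6.65% and 5.47% in siIGF2BP2, and 4.93% and 4.47% in siIGF2BP3, shares that stand beside the counts of each list. Of 18 tested out of 23, 5 were higher and 4 lower in siIGF2BP1, 2 higher and 5 lower in siIGF2BP2, and 0 higher and 3 lower in siIGF2BP3. MTTP, which loads lipid onto APOB, was lower after 2 of the knockdowns, by log2 differences of -0.19 (SE 0.037, edgeR adjusted p 0.0003) for siIGF2BP1 and -0.24 (SE 0.037, adjusted p 1.28e-05) for siIGF2BP3. ANGPTL8, a regulator of lipoprotein lipase, went up by 0.32 with siIGF2BP1 (SE 0.086, edgeR adjusted p 0.00746) and was lower with siIGF2BP2, at -0.73 (SE 0.089, adjusted p 9.7e-08). Over time in siControl 13 of the 18 fell, beside 80.3% of all genes, with a median slope of -0.39, and ANGPTL8 at -1.49 and LIPG, endothelial lipase, at -1.45 were among them.

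Of the receptors and sterol exporters, 18 of 20 were tested. At 0 h, 4 were higher in siIGF2BP1, 2 were lower in siIGF2BP2, and 1 was higher and 6 lower in siIGF2BP3. Over time in siControl 15 of the 18 fell, with a median slope of -0.7, which is near the 80.3% and -0.88 of all genes. LRP8, a receptor of APOE, was lower at 0 h in siIGF2BP2 (-0.22, SE 0.051, edgeR adjusted p 0.003) and at -0.17 in siIGF2BP3 (SE 0.052, adjusted p 0.0344).

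The transcription regulators of apolipoprotein genes had the lowest median slope of these lists. Of 27 tested, 26 fell in siControl, beside 80.3% of all genes, with a median slope of -2.27. CEBPA had a slope of -5.67 (SE 0.133, edgeR adjusted p 1.57e-18) and FOXA1 one of -5.49 (SE 0.736, adjusted p 5.62e-07). At 0 h, 8 were higher and 4 lower in siIGF2BP1, 1 higher and 2 lower in siIGF2BP2, and 4 higher and 2 lower in siIGF2BP3. NR1H4, the bile acid receptor FXR, was 0.54 higher in siIGF2BP1 (edgeR adjusted p 3.56e-11) and 0.32 higher in siIGF2BP3 (adjusted p 9.55e-06), and was lower in siIGF2BP2 at -0.16 (adjusted p 0.0258).

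Other secreted liver proteins had slopes close to those of the 10 apolipoproteins. Of 36 tested out of 40, 3 fell and none rose in siControl, beside 80.3% and 0.251% of all genes, with a median of 0.01. Those that rose numbered 9, 12 and 13 in siIGF2BP1, siIGF2BP2 and siIGF2BP3, where 2.69%, 2.44% and 2.91% of all genes rose. LRG1 at -0.51 and TFPI, an inhibitor of coagulation, at -0.3 were lowest in siControl among those called. At 0 h, 13 were higher and 7 lower in siIGF2BP1, 7 higher and 14 lower in siIGF2BP2, and 9 higher and 8 lower in siIGF2BP3. HPX, which binds haem, was 0.61, 0.4 and 0.38 higher in the 3 knockdowns, and AHSG, fetuin A, was lower in siIGF2BP2 and siIGF2BP3 (-0.36 and -0.27). The difference in slope from siControl passed for no gene of the 5 lists in any knockdown.

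Across the 24 libraries, which share one time course, the gene most like each member was named by the Pearson correlation of log2 CPM with TMM scaling among 9745 genes, as a description. APOA1 was nearest to PDIA4, a disulfide isomerase of the endoplasmic reticulum (r = 0.997), APOB to UGGT1, a folding sensor of the same compartment (0.995), APOA2 to the ribosomal protein RPL34 (0.996), APOE to LGALS3BP (0.996) and APOH to ADH5 (0.995). APOC1 was nearest to NRDC (0.992), APOM to PRKAR1A (0.98), APOC3 to SULT1A1 (0.977), APOA4 to SLC39A5 (0.893) and APOC2 to ANGPTL8 (0.747). Among the members, APOA1 and APOH were most alike (0.988), and the best value of APOC2 with any other member was 0.036.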

How the data were processed

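RNA from HepG2 cells with ERCC spike-in RNA, added per amount of total RNA, was sequenced single-end with a stranded kit. Per the submitters' processing notes and the study's methods, reads were trimmed with Trimmomatic 0.39 and mapped to hg38 with HISAT2 2.1.0. The values deposited by the authors are raw HTSeq counts per GENCODE gene and ERCC RNA, one file per library, with no normalization. The treatment of overlapping genes and of multiply mapped reads is not given in the sources used here. The 5 summary rows held 13.551% to 17.064% of reads and were left out of library sizes and tests, as were 45 duplicate Y-linked rows. Symbols were matched for 58207 Ensembl identifiers and not for 469, by GENCODE 44, a later release than the authors', which also gave coordinates (GRCh38), transcripts and sequences. The promoter table of RefSeq was read but no promoter is shown.

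Genes with at least 1 CPM in at least 2 libraries were tested, 13136 in all, with the quasi-likelihood test of edgeR 4.0.16 in R 4.3.3, two-sided, with Benjamini-Hochberg adjustment over all of them and a threshold of 0.05. Levels at 0 h were compared in one model of the 12 groups with TMM scaling. Loss was fitted as a line on time for each siRNA with the total of the ERCC reads as the library size. The rate of loss for the half-life was the mean of those from 0 to 3 h and from 0 to 6 h, with ERCC-scaled means in place of the authors' conversion to attomole. Read counts of replicates differed by 3.25 to 8.56 times the sampling noise, so no library was a copy of another. Intervals of half-lives are 95% and rest on 2 libraries per group.

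The 10 members, the gene lists and the tests were chosen with earlier results of these data known. Text names the 10 members and, from each of the 5 other lists, up to 2 genes per direction and comparison that passed with the largest log2 value and a mean of at least 5 CPM, and for each member the gene with the highest correlation. One gene that this rule names is not reported here. Alternatives were another scaling, no or a stricter filter (5 CPM), DESeq2 1.42.0, a replicate block, only the groups compared, the mean over the times, the change from 0 to 6 h alone, and each library left out in turn. The slope averaged over the 4 siRNAs, TMM scaling with APOB left out of the library sizes, and the length over all annotated exons were added after seeing the data. The test of siIGF2BP1 against siControl at 0 h and the slope difference of siIGF2BP3 were also run on simulated counts. The simulated spike-in reads followed the library size exactly, so this check does not cover the error of ERCC scaling.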

Additional observations from a re-analysis of the deposited data

Results flagged for a closer look

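The results below met the rule for a difference between groups: 2 knockdowns differed in the same contrast with siControl at 0 h, by a test of that difference (edgeR adjusted p under 0.05, TMM scaling). Between siIGF2BP1 and siIGF2BP2 the log2 differences were 0.24 for APOA1, 0.18 for APOB, 0.19 for APOC1, 0.54 for APOC3, 0.17 for APOE, 0.17 for APOH and 0.34 for APOM, each higher in siIGF2BP1. Between siIGF2BP1 and siIGF2BP3 they were 0.13 for APOA1, 0.15 for APOB, 0.22 for APOC1, 0.36 for APOC3 and 0.23 for APOE, again higher in siIGF2BP1. Between siIGF2BP2 and siIGF2BP3 they were -0.11 for APOA1 and -0.15 for APOH, lower in siIGF2BP2. With ERCC scaling 1 of these, APOC3 between siIGF2BP1 and siIGF2BP2, stayed past the threshold.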

How the results depend on the processing

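With ERCC scaling the members called at 0 h numbered 0 in siIGF2BP1, 2 in siIGF2BP2 and 0 in siIGF2BP3 against siControl, and 1, 0 and 0 between siIGF2BP1 and siIGF2BP2, siIGF2BP1 and siIGF2BP3, and siIGF2BP2 and siIGF2BP3. With TMM scaling the slopes of 8, 9 and 9 members passed in siControl, siIGF2BP1 and siIGF2BP2, and 9 curvatures, and with library sizes alone 8, 8, 8 and 8. Of all 13136 genes, TMM scaling called 9858, 9779 and 9705 slopes and 6937 curvatures in the same order. Library sizes alone called 9636, 9569 and 9515 slopes and 6311 curvatures. TMM turned the slopes of APOA4 to 0.27, 0.43, 0.43 and 0.31 and of APOB to 0.62, 0.61, 0.59 and 0.60 in siControl, siIGF2BP1, siIGF2BP2 and siIGF2BP3, their average slopes to 0.36 and 0.60, those of APOC2, APOH and APOM in siControl to 0.03, 0.83 and 0.85, and the curvatures of APOA2 and APOC1 to -0.13 each. Library sizes turned APOB to 0.30, 0.31, 0.31 and 0.31, APOH and APOM in siControl to 0.51 and 0.53, and the curvature of APOA2 to -0.08. The mean over 0, 3 and 6 h, which uses more libraries and called 4440, 4239 and 3992 of all genes, gave 9 and 7 members in siIGF2BP2 and siIGF2BP3 and 6 between these, and turned APOA2 in siIGF2BP3 to -0.06. Between siIGF2BP2 and siIGF2BP3, no count filter, the stricter filter and DESeq2 gave 4 each. DESeq2 gave 2 slopes in siIGF2BP1, the fit of only the groups compared 2 in siIGF2BP2, and the stricter filter 0 curvatures, since APOC2 was then not tested. The cause of the other changes was not tested. Leaving out each library in turn gave 1 to 4, 3 to 4 and 2 to 3 members at 0 h in siIGF2BP1, siIGF2BP2 and siIGF2BP3, 6 to 7, 3 to 5 and 0 to 3 between the knockdowns in the order above, 1 to 3, 1 to 4, 1 to 6 and 2 to 6 slopes, 1 to 2 curvatures, and 0 to 0 differences in slope. With APOB left out of the library sizes, chosen after seeing the data, no call changed. Of the members' single values under all alternatives 1999 kept their side of the threshold, and kept their sign where they were past it. Changes of sign between values that did not pass are counted among these. A further 92 passed the threshold, 106 lost it, and 23 changed sign with at least 1 of the 2 values past it.

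Deviations of libraries with the same number correlated at -0.08 to 0.35 (median 0.01), over 0.1 in 8 of 66 pairs of groups, so the numbers were not taken to pair the libraries. With the replicate block the counts at 0 h were 5, 4, 4, 7, 5 and 3 in the same order, the slopes 2, 4, 4 and 6, the differences in slope 0, 0 and 0, and the curvatures 1. It added APOH in siIGF2BP3 (edgeR adjusted p 0.0243) and APOC3 between siIGF2BP2 and siIGF2BP3 (0.0468), and APOC2 in siControl was lost (0.0511). Depth limits APOC2 and APOA4.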
